A study of Mus musculus with 4 samples.

Results

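The Notch receptors Notch1, Notch2, Notch3 and Notch4, their ligands Dll1, Dll4, Jag1 and Jag2, and the genes Hes1 and Dtx1 downstream of the receptors were followed in 4 lines of L1210, a mouse lymphocytic leukemia cell line. All probes carrying the symbol of one of these 10 genes in the deposited table were taken, and each probe was described separately. This gave 13 probes of the 55681 on the array and 10 genes of the 24561 gene symbols. Notch1, Notch2 and Dll1 had a pair of probes each, and the other 7 genes had 1 probe.

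The control line is labelled L1210-control and the 3 variant lines L1210-Fbxw11d, L1210-Fbxw11c and L1210-Fbxw11a, and below they are called the control, Fbxw11a, Fbxw11c and Fbxw11d lines. All have the labelled background DBA subline 212. Fbxw11 is the F-box protein also called beta-TrCP2, the part of an SCF ubiquitin ligase that recognises its substrates. The variant lines overexpressed 1 transcript variant each, carried in by lentivirus, and GFP-positive stable cells were sorted before the RNA was taken. The labels give no time, dose or drug, and they do not say whether a line came from 1 clone. In the study's description Fbxw11a is the full-length variant, Fbxw11c lacks exon 2 and Fbxw11d lacks exons 2 and 3. Cy3-labelled RNA of each line went onto 1 Agilent 1-colour array, so no difference has a replicate check and no test between lines was possible. RNA came from whole populations of cells, and fewer expressing cells cannot be told apart from less RNA per cell.

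Notch receptors are single-pass membrane proteins. A Delta-like or Jagged ligand on a neighbouring cell binds the receptor, which is then cut by an ADAM protease and by gamma-secretase. The freed intracellular part enters the nucleus and, with the DNA-binding protein RBPJ and a Mastermind coactivator, switches on genes such as the Hes repressors. In lymphoid progenitors NOTCH1 directs cells to the T lineage, NOTCH2 is needed for marginal zone B cells, and activated NOTCH1 drives many T-cell leukemias.

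The probes are DNA 60-mers, and the sequences deposited with the arrays show which stretch of each gene was read. They are shown for the genes with more than 1 probe and for the genes that differ most between lines, with 30 bases given of each, since whether a probe lies in coding sequence or in an untranslated region was not checked. Capitals mark the longest run made only of A and G within the bases shown.
Notch1 A_55_P2047168, bases 17 to 46: tcGAAAAGAAAGAAAAAAGAAcgtgacagg
Notch1 A_55_P2171897, bases 31 to 60: aacagtGAAGAAGAAGAAGAtgcacctgct
Notch2 A_52_P289213, first 30 bases: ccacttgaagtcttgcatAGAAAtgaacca
Notch2 A_55_P1982793, first 30 bases: tcttcaccacactctgcatctGActggtca
Notch3 A_51_P220162, first 30 bases: gcctaatAGAAAtgtttttaggctgttttt
Notch4 A_51_P195875, first 30 bases: gttgatttcGAGAAtccctaaactctggaa
Dll1 A_51_P306017, first 30 bases: gattactatGAGccagtctttccttgaact
Dll1 A_55_P1986900, first 30 bases: acactatccGGAccccaattccccatttcc
Dll4 A_51_P384402, first 30 bases: tttgcccAGActccatcctcacagctgggc
Jag1 A_52_P634090, first 30 bases: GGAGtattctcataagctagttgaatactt
The first Notch1 probe, with 43.3% A, holds a purine run of 19 bases and shares a stretch of 17 bases with a probe for Ina. The second holds a run of 14 purines and shares 19 bases with a probe for Cmya5. The probes for Notch2, Notch3, Notch4, Dll4 and Jag1 and the second Dll1 probe shared no stretch of 15 or more bases with another probe, and the first Dll1 probe shared 15 with one for Napa.

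Signals below are the scanner's background-corrected brightness, divided by the 75th percentile of the array and put on the scale of the control line. The ± after a signal is the error the scanner software gave the spot, and the ± after a log2 ratio combines the errors of both lines. A probe that the scanner did not place well above background has only a bound. The error given with a bound still includes that of the dim spot, also where the bound uses the detection limit in its place. Brightness depends on the probe, so levels are compared between lines and not between genes.

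The arrays of the control line, the Fbxw11a line and the Fbxw11c line shared slide 1, and the Fbxw11d line was alone on slide 2, so for that line slide and variant cannot be told apart. Before scaling its 75th percentile was 954, against 620.2 to 672 on slide 1. After scaling, the 7 E1A spike-in RNAs lay -0.57 ± 0.075 (SD, log2) from the control line in the Fbxw11d line, 0.11 ± 0.038 in the Fbxw11a line and 0.13 ± 0.083 in the Fbxw11c line, while before scaling they lay 0.054, 0.13 and 0.25 from it. Over all probes the median log2 ratio of the Fbxw11d line was -0.11 with this scaling and -0.35 with the normexp background correction. It was 0.11 when arrays were centred on their medians and 0.51 with no scaling between arrays, a setting added after the data were seen. The size and in part the direction of each difference of the Fbxw11d line given here is thus relative to the scaling and the background correction. The 2 probes for Fbxw11 differed from the control line by 0.31 and 0.21 in the Fbxw11a line, 0.27 and 0.22 in the Fbxw11c line and 0.025 and 0.18 in the Fbxw11d line on the log2 scale, no more than 1.53 times their scanner error, and they read the transcript around bases 3692 and 3803, so whether they see the introduced variants is not known. Of 12 B lineage markers 6 were well above background in every line, including Cd79a and Blnk, while Ebf1, Rag1 and Ms4a1 were not in any line. Of 12 T lineage markers 8 to 10 were, including Cd3e and Cd4, while Cd3d and Cd3g were not in any line. Macrophage markers (8 of 11 in each line), endothelial markers (6 to 8 of 12) and fibroblast markers (6 to 8 of 12) were also in part above background, with Lyz2, Tek and Pdgfrb below it throughout. The summed signal of these 3 lists ranged over the lines from 11270 to 14796, from 15123 to 18259 and from 189179 to 204230. These sums follow their brightest probes, such as Vim (154289 to 171727) and Fn1 (29007 to 34460) among the fibroblast markers, and single markers moved within them. Csf1r was at 507 in the Fbxw11d line against 1030 to 1104 in the other lines, and Emr1 was at 90.9 in the Fbxw11a and Fbxw11d lines against 48.3 in the control line and 35.6 in the Fbxw11c line. The part of these cell types in the Notch values was not tested.

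Among the receptors, Notch3 and Notch4 had higher signals in each variant line than in the control line. Notch3 was about 2-fold higher in the Fbxw11a line and the Fbxw11c line, and Notch4 was 1.87-fold higher in the Fbxw11a line, with smaller differences in the other lines under this scaling. Notch2 was slightly higher in the Fbxw11c line and the Fbxw11d line by both of its probes, and with this scaling Notch1 showed no difference from the control line beyond the scanner error on the probe that was measured in every line.

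Notch3, a receptor best known in vascular smooth muscle and also active in T-cell leukemia, was read by A_51_P220162 at chr17:32257848-32257907 (mm9, minus strand; base 7873 of its transcript). Its signal was 123.9 ± 12.9 in the control line, 266 ± 26.7 in the Fbxw11a line, 257 ± 25.9 in the Fbxw11c line and 219.5 ± 22 in the Fbxw11d line. All 3 variant lines lay above the control by more than the scanner error, and they lay close to each other. The log2 ratios to the control line were 1.1 ± 0.21, 1.06 ± 0.21 and 0.83 ± 0.21, which are folds of 2.15, 2.08 and 1.77 and 5.26, 5.04 and 3.95 times the error. With the normexp background correction they were 0.82, 0.74 and 0.47, so none reached 2-fold, and the Fbxw11d line was at 1.04 with median centring and at 1.45 with no scaling. The direction was higher under each of the 6 other ways of processing the values.

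Notch4, a receptor found mainly in endothelium, was read by A_51_P195875 at chr17:34725120-34725179 (mm9, plus strand; base 6235). The signals were 503 ± 50.4 in the control line, 939.6 ± 94.0 in the Fbxw11a line, 643 ± 64.4 in the Fbxw11c line and 648 ± 64.8 in the Fbxw11d line. With this scaling the Fbxw11a line stood above the other 3 lines. The log2 ratios to the control were 0.90, 0.35 and 0.37, each with an error of 0.20, and none reached 2-fold. The Fbxw11a line was above the Fbxw11c line by 0.55 and the Fbxw11d line below the Fbxw11a line by 0.54 on the log2 scale, 2.68 and 2.63 times the scanner error. With no scaling the ratios to the control were 0.92, 0.47 and 0.99, so the Fbxw11d line was then the highest, 0.069 above the Fbxw11a line. The endothelial marker count was 6, 7, 7 and 8 of 12 in the control, Fbxw11a, Fbxw11c and Fbxw11d lines. The summed signal of that list was 16451, 17407, 18259 and 15123 in the same order. Cdh5 and Tie1 were counted in the Fbxw11d line at 18.9 and 12.9, and not in the control line at 20.7 and 15.9. A higher count thus did not mean a higher signal.

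Notch2, the receptor of marginal zone B cells, had probes 2681 bases apart on chromosome 3. A_52_P289213 (chr3:97953914-97953973, mm9, plus strand, base 10129) gave 1539 ± 154 in the control line, 1528 ± 153 in the Fbxw11a line, 1854 ± 185 in the Fbxw11c line and 1977 ± 197.7 in the Fbxw11d line. The dimmer A_55_P1982793 (chr3:97951233-97951292, base 7448), gave 46.3 ± 6.26, 38.9 ± 5.24, 69.2 ± 7.69 and 63.4 ± 6.68 in the same order. Both probes put the Fbxw11c line and the Fbxw11d line above the control line and the Fbxw11a line. The log2 ratios to the control were -0.010, 0.27 and 0.36 (error 0.20) by the first probe and -0.25 ± 0.28, 0.58 ± 0.25 and 0.45 ± 0.25 by the second. With normexp the second probe's value for the Fbxw11d line was -0.012, and the first probe's for the Fbxw11a line, close to 0 throughout, also changed sign. With no scaling the values of the Fbxw11d line were 0.98 and 1.08.

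Notch1, the receptor of T-cell commitment, had probes 4810 bases apart on chromosome 2. A_55_P2171897 (chr2:26319440-26319499, mm9, minus strand, base 5898) was well above background in every line, with 63.7 ± 7.36 in the control line, 58.0 ± 6.48 in the Fbxw11a line, 73.3 ± 7.91 in the Fbxw11c line and 64.6 ± 6.78 in the Fbxw11d line. The log2 ratios of -0.14, 0.20 and 0.020 to the control were all within their error of 0.23, and the last was -0.27 with normexp and 0.64 with no scaling. The Fbxw11a line was below the Fbxw11c line by a log2 ratio of -0.34, 1.52 times its error. A_55_P2047168, the purine-rich probe (chr2:26314630-26314689, base 8221), was well above background in the Fbxw11a line alone, at 24.1 ± 3.85. It read 3.80 in the control line, 3.27 in the Fbxw11c line and 2.07 in the Fbxw11d line, none well above background. The detection limits, set by the dimmest probe whose spots were all well above background, were 18.1 in the control line and 10.4 in the Fbxw11d line, so the Fbxw11a line was at least 1.33-fold higher than the control and at least 2.31-fold higher than the Fbxw11d line, the latter 1.52-fold with no scaling. The scanner errors of these log2 ratios, which include those of the spots not well above background, were larger than the bounds themselves. By that measure the bounds do not set the 2 Notch1 probes apart.

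**Figure D1:**
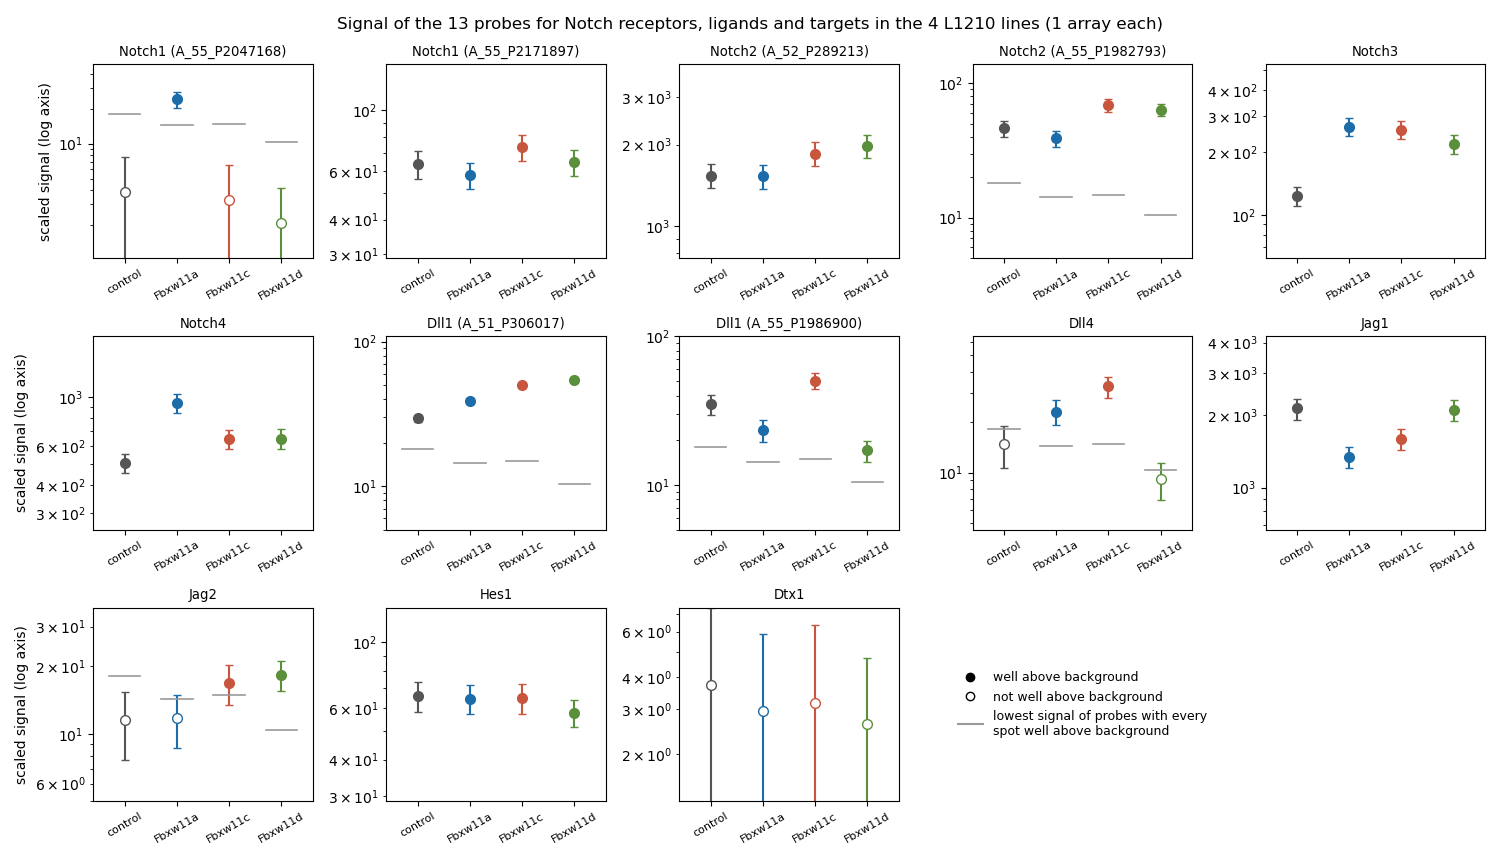
Scaled signal (log axis) of each of the 13 probes in the 4 lines, with 1 array per line and bars for the scanner's error, which run to the bottom of the panel where the error is as large as the signal. Hollow points are not well above background, and grey lines are the detection limits. Notch3 lies between 219.5 and 266 in the 3 variant lines against 123.9 in the control line, and Dtx1 is hollow in every line.

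Among the ligands, the Dll1 probes disagreed with each other, Dll4 was well above background only in the Fbxw11a line and the Fbxw11c line, Jag1 was lower in those same lines, and Jag2 lay at the edge of detection. Dll1 is a Delta-type ligand that the study lists among genes regulated by beta-catenin/TCF, and it activates NOTCH2 in splenic B cells. By real-time PCR the study reports Dll1 as raised, to differing extents, in the variant lines. Where the PCR primers lie relative to the array probes was not checked.

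The first Dll1 probe, A_51_P306017 (chr17:15504623-15504682, mm9, minus strand, base 3063), was printed on 10 spots of each array. Its signal increased from the control line at 29.5 ± 1.58 through the Fbxw11a line at 38.8 ± 1.61 and the Fbxw11c line at 49.9 ± 1.98 to the Fbxw11d line at 54.6 ± 2.07. Its single spots ran from 21.5 to 36.6 in the control line (n = 10), from 29.6 to 51.8 in the Fbxw11a line (n = 10), from 43.9 to 55.4 in the Fbxw11c line (n = 9) and from 49.8 to 59.8 in the Fbxw11d line (n = 8), after 1 and 2 spots marked as outliers were left out on the last 2 arrays. Every spot kept for the Fbxw11c and Fbxw11d lines lay above the highest spot of the control. The spots of the Fbxw11a line overlapped with those of the control. Spots of 1 array share the same RNA, so their spread is technical. The log2 ratios to the control were 0.39, 0.76 and 0.89, with errors of 0.097, 0.096 and 0.094, and stayed under 2-fold. With the marked spots kept they were 0.39, 0.80 and 0.79. The log2 ratio of the Fbxw11d line to the Fbxw11c line was then -0.020, against 0.13 with these spots left out. The order of these lines thus depended on the marked spots. The Fbxw11d line passed 2-fold at 1.1 with median centring, 1.09 with quantile normalization, 1.09 with the authors' normalized values and 1.51 with no scaling, and was at 0.082 with normexp, where the Fbxw11a line and the Fbxw11c line were at 0.12 and 0.23.

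The second Dll1 probe, A_55_P1986900 (chr17:15513726-15513785, mm9, minus strand), lies 9103 bases from the first, toward the 5′ end of the gene, at base 51 of an Ensembl transcript, and had 1 spot. It read 35.1 ± 5.31 in the control line, 23.3 ± 3.98 in the Fbxw11a line, 50.3 ± 6.01 in the Fbxw11c line and 17.1 ± 2.69 in the Fbxw11d line. The Fbxw11c line was the highest line and with this scaling the Fbxw11d line the lowest. By the first probe the Fbxw11d line was the highest. There it lay below the Fbxw11c line with marked spots kept or with normexp, by log2 ratios of -0.020 and -0.15. The log2 ratios to the control line were -0.59 ± 0.33, 0.52 ± 0.28 and -1.04 ± 0.32, the last a 2.05-fold lower signal. Probes on 10 spots and of like brightness gave a spread between single spots, for such a ratio, of 0.58, 0.50 and 0.89, so the differences were about as large as that spread. The Fbxw11d line was at -0.81, -0.82 and -0.80 with quantile normalization, median centring and the authors' values, at -0.70 with normexp and at -0.42 with no scaling, each lower than the control and short of 2-fold. With no scaling the Fbxw11a line, at -0.57, was the lowest. With normexp the Fbxw11a and Fbxw11c lines were at -0.19 and 0.16, within the errors given above. Between variant lines, this probe was 2.16-fold lower in the Fbxw11a line and 2.95-fold lower in the Fbxw11d line than in the Fbxw11c line, or 2.31-fold and 2.08-fold with no scaling and 1.27-fold and 1.81-fold with normexp.

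**Figure D2:**
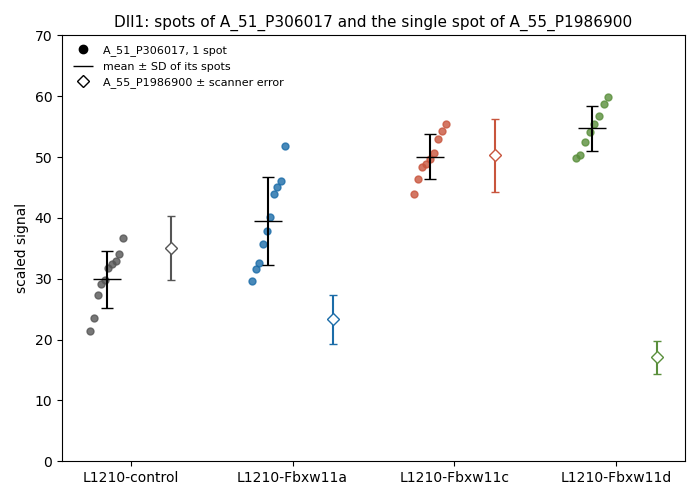
Scaled signal (linear axis from 0) of Dll1 in the 4 lines, with circles for the spots of A_51_P306017 sorted by signal, black bars for their mean ± SD, and diamonds for the single spot of A_55_P1986900 with the scanner's error. With marked spots left out, the circles of the Fbxw11d line lie between 49.8 and 59.8 while its diamond is at 17.1.

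The named gene patterns most like that of the second Dll1 probe, by the smallest of the largest differences over the 3 log2 ratios to the control line among 21878 probes measured in every line, were those of Bgn (0.16), St8sia2 (0.23) and Ttc26 (0.23). Bgn, which encodes the matrix proteoglycan biglycan, had ratios of -0.43, 0.39 and -1.12. In all, 18 probes matched the Dll1 ratios within its largest scanner error, so with 3 ratios many probes look alike.

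Dll4, the Delta ligand of the thymic epithelium and of sprouting vessels, was read by A_51_P384402 (chr2:119160779-119160838, mm9, plus strand, base 2827). It was well above background at 23.1 ± 3.80 in the Fbxw11a line and at 32.6 ± 4.60 in the Fbxw11c line, and not at 14.8 in the control line or at 9.12 in the Fbxw11d line. The Fbxw11a and Fbxw11c lines were thus at least 1.28-fold and at least 1.80-fold higher than the control, and no ratio can be given for the Fbxw11d line. On the log2 scale these bounds were 0.35 with a scanner error of 0.46, so within it, and 0.85 with an error of 0.45. Single spots of like brightness spread by 0.76 and 0.74 for such a ratio, and with normexp the bounds were 0.12 and 0.16. Against the Fbxw11d line they were at least 2.22-fold and at least 3.13-fold higher, which is 2.68 and 3.99 times the error, beside a spread of single spots of 1.0 and 0.99 on the log2 scale. With no scaling these bounds were 1.46-fold and 2.21-fold, and with normexp 1.62-fold and 1.67-fold. Between the lines that measured it, the log2 ratio of the Fbxw11a line to the Fbxw11c line was -0.50, 1.59 times its error.

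Jag1, a Jagged ligand, was bright and was read by A_52_P634090 (chr2:136907433-136907492, mm9, minus strand, base 4998). Its signals were 2131 ± 213 in the control line, 1337 ± 134 in the Fbxw11a line, 1597 ± 160 in the Fbxw11c line and 2092 ± 209 in the Fbxw11d line. The Fbxw11a line and the Fbxw11c line were lower than the control, and the Fbxw11d line lay beside it. The log2 ratios were -0.67, -0.42 and -0.027, each with an error of 0.20, or 1.59-fold and 1.33-fold lower in the first pair, and the value of the Fbxw11d line was 0.19 with median centring and 0.59 with no scaling. The Fbxw11d line was above the Fbxw11a line by 0.65 on the log2 scale, 3.16 times the error, and by 1.25 with no scaling.

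Jag2, the other Jagged ligand, was read by A_51_P451338 (chr12:114146887-114146946, mm9, minus strand, base 3908). It was at 11.5 in the control line and 11.7 in the Fbxw11a line, neither well above background. It was well above background at 16.8 ± 3.41 in the Fbxw11c line and at 18.2 ± 2.77 in the Fbxw11d line. The Fbxw11c line lay under the detection limit of 18.1 in the control line, so it has no ratio, and the Fbxw11d line was at least 1.01-fold higher than the control (log2 bound 0.011, error 0.53). The Fbxw11a line was at least 1.17-fold below the Fbxw11c line and at least 1.27-fold below the Fbxw11d line, bounds of 0.23 and 0.34 in size on the log2 scale with errors of 0.48 and 0.44. Each of these bounds lay within its scanner error. With no scaling the Fbxw11d line was at least 0.63 above the control and 0.95 above the Fbxw11a line on the log2 scale, beyond those errors.

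Of the genes downstream, Hes1 did not differ between lines beyond the scanner error with this scaling and Dtx1 was not detected. Hes1, a repressor of the basic helix-loop-helix type and a direct Notch target, was read by A_55_P2046245 (chr16:30067820-30067879, mm9, plus strand, base 1388) at 65.7 ± 7.82 in the control line, 64.3 ± 7.33 in the Fbxw11a line, 64.7 ± 7.40 in the Fbxw11c line and 57.7 ± 6.13 in the Fbxw11d line. The log2 ratios were -0.030 ± 0.24, -0.021 ± 0.24 and -0.19 ± 0.23. Those of the Fbxw11c line and the Fbxw11d line turned to 0.057 and 0.018 with quantile normalization, to 0.051 and 0.031 with median centring and to 0.061 and 0.019 with the authors' values, and they were 0.096 and 0.43 with no scaling. Dtx1, a Deltex ubiquitin ligase that binds Notch, was read by A_51_P202050 (chr5:121130278-121130337, mm9, minus strand, base 3650) at 3.72, 2.94, 3.17 and 2.63 in the same order, well above background in no line.

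**Figure D3:**
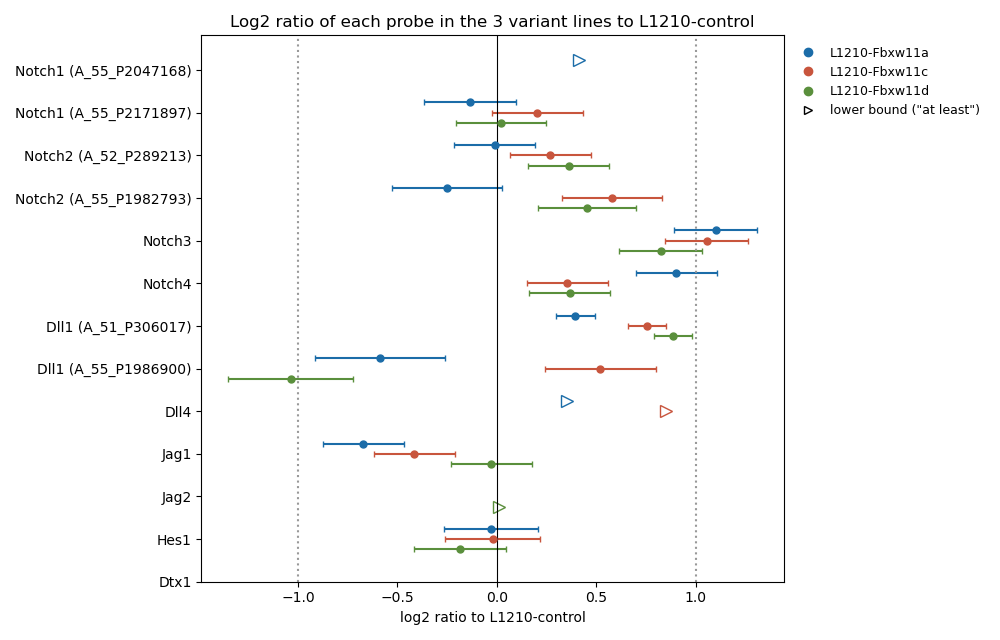
Log2 ratio to the control line of each probe in the 3 variant lines, with bars for the combined scanner error, open triangles for lower bounds and dotted lines at 2-fold. Notch3 lies to the right in every line (0.83 to 1.1), and the second Dll1 probe lies on both sides of 0 (-1.04 to 0.52). Probes with no ratio, such as Dtx1, have no mark.

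The study counted a gene as changed at a fold of 2. Of the 13 probes, 9, 11, 11 and 10 were well above background in the control line, the Fbxw11a line, the Fbxw11c line and the Fbxw11d line, and a probe was compared where it was so in at least 1 of the 2 lines. In the Fbxw11a line, 1 of 11 compared probes (Notch3, higher) reached 2-fold, beside 5.13% of all 37677 probes compared and 2.71% for higher signals alone. In the Fbxw11c line it was again 1 of 11 (Notch3, higher), beside 4.47% of 37031 and 1.69% for higher signals alone. In the Fbxw11d line it was 1 of 10 (the second Dll1 probe, lower), beside 6.97% of 39090 and 5.99% for lower signals alone. Each of these shares is 1 probe, so they do not set the Notch genes apart from the array. In the Fbxw11d line the probes at 2-fold over the whole array were 385 higher and 2340 lower, and with median centring 847 and 1534. By median centring the Notch probes at 2-fold in that line were Notch3 and the first Dll1 probe, both higher. With no scaling between arrays they were Notch3, the first Dll1 probe and Notch2 A_55_P1982793 (1.08 on the log2 scale), all higher, the second Dll1 probe was no longer among them, and the array held 4497 higher and 819 lower probes.

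The median log2 ratio of the 9 probes measured on both arrays was -0.030 in the Fbxw11a line, 0.35 in the Fbxw11c line and 0.36 in the Fbxw11d line, beside -0.011, -0.0031 and -0.0072 over all probes so measured. With normexp the middle value was that of Notch2 A_55_P1982793, 0.18 in the Fbxw11c line and -0.012 in the Fbxw11d line. With no scaling it was that of Notch2 A_52_P289213 in the Fbxw11d line, 0.98. These medians thus depended on the processing. The 3 comparisons share the array of the control line. Between variant lines, 1 of 12 probes reached 2-fold in the Fbxw11a line against the Fbxw11c line (the second Dll1 probe), beside 4.92% of all probes and 1.78% for lower ones. It was 2 of 12 in the Fbxw11d line against the Fbxw11a line (Dll4 and the purine-rich Notch1 probe, both by a bound), beside 7.33% and 6.29%, and 2 of 11 in the Fbxw11d line against the Fbxw11c line (Dll4 by a bound, and the second Dll1 probe), beside 5.26% and 4.38%. The line named first was the lower one in each of these cases, and no signal involved was above 50.3. The calls of the Fbxw11d line against the Fbxw11a line depended on the scaling. There were 0 with quantile normalization, median centring or the authors' values, 1 with normexp and, with no scaling, 3 that were higher in the Fbxw11d line (Notch2 A_55_P1982793, the first Dll1 probe and Jag1) and 0 lower. With normexp there were 0 in the other 2 comparisons.

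The rest of the pathway was described by a list of 71 other genes, of which 70 were on the array with 111 probes. Of these, 65 genes had no probe at 2-fold in any variant line. In the Fbxw11a line 2 probes were at least 2-fold higher and 1 lower of 100 compared, in the Fbxw11c line none of 98, and in the Fbxw11d line 2 were lower of 104, which is 3.0%, 0% and 1.92% beside the 5.13%, 4.47% and 6.97% of all probes. With no scaling between arrays the Fbxw11d line had 8 higher and 0 lower. The medians of the list were 0.016, 0.032 and 0.034 on the log2 scale.

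Mfng, the manic fringe sugar transferase that alters how Notch binds its ligands, was highest in the Fbxw11a line with this scaling. By A_66_P113245 its signal was 1274 ± 127 in the control line, 2564 ± 256 in the Fbxw11a line, 1650 ± 165 in the Fbxw11c line and 1623 ± 162 in the Fbxw11d line, with log2 ratios of 1.01, 0.37 and 0.35 (error 0.20). Its other probe, A_55_P2044439, gave 0.97, 0.38 and 0.39, just under 2-fold in the Fbxw11a line. With quantile normalization, normexp or the authors' values the first probe was also just short of 2-fold, at 0.99, 0.99 and 0.98. With no scaling it was at 1.03 in the Fbxw11a line and 0.97 in the Fbxw11d line, so the gap between these lines depended on the scaling.

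Hes5, a Hes repressor and Notch target, was dim, with 18.9 ± 4.17 in the control line, 40.3 ± 5.01 in the Fbxw11a line, 26.7 ± 4.17 in the Fbxw11c line and 22.1 ± 3.04 in the Fbxw11d line. The log2 ratios were 1.09 ± 0.36, 0.50 ± 0.39 and 0.22 ± 0.37, and 0.35, 0.038 and -0.42 with normexp. The last was 0.85 with no scaling. Of the other targets, Nrarp, a feedback inhibitor of the Notch complex, had ratios of -0.19, 0.25 and 0.19, Myc had -0.09, 0.07 and -0.20, and Hey2 and Heyl were not well above background in any line. Hey1 was so only in the Fbxw11d line, at 15.9, under the limit of 18.1 in the control. These 5 genes lie outside the rule for named genes and were picked after their values were seen.

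Numb, which antagonises Notch by promoting its removal from the membrane, was lower in each variant line, with 334 ± 33.6 in the control line, 256 ± 25.8 in the Fbxw11a line, 205 ± 20.8 in the Fbxw11c line and 159.6 ± 16.1 in the Fbxw11d line. The log2 ratios were -0.39, -0.70 and -1.07, each with an error of 0.21, and the Fbxw11d line was at -0.85 with median centring and -0.45 with no scaling. Dtx3l, a relative of the Deltex ligases, had 3 probes, and they did not agree. A_55_P2174541 read 34.5, 29.3, 42.5 and 16.4 in the 4 lines, a log2 ratio of -1.07 ± 0.32 in the Fbxw11d line and -0.45 with no scaling, while A_55_P2059154, the brightest, gave 0.05 and A_66_P106060 gave -0.11 there. Tle4, a Groucho corepressor, read 42.9 ± 5.68 in the control line, 39.0 ± 5.03 in the Fbxw11c line and 23.9 ± 3.16 in the Fbxw11d line and was not well above background at 8.43 in the Fbxw11a line, at least 2.98-fold lower than the control. This log2 bound was -1.58, and -0.62 with normexp.

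The 2 probes for Rbpj, the DNA-binding partner of all Notch receptors, gave log2 ratios of -0.13 and -0.08 in the Fbxw11a line, -0.32 and -0.32 in the Fbxw11c line and -0.82 and -0.46 in the Fbxw11d line. With no scaling the Fbxw11d line was at -0.20 and 0.16, so the second value changed direction. The proteases of receptor cleavage, from Adam10 to the gamma-secretase subunits, lay between -0.47 and 0.45 in the 3 lines where measured, with no probe at 2-fold, and reached 0.95 with no scaling (Psen2 in the Fbxw11d line). Rbpj, Adam10 and Psen2 were likewise named after their values were seen.

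**Figure D4:**
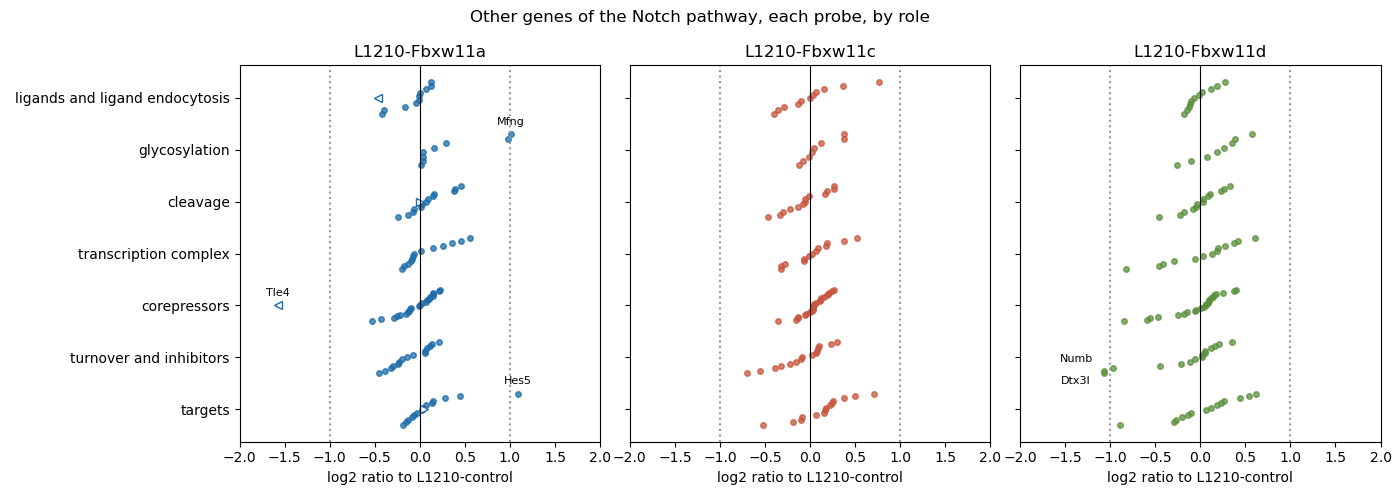
Log2 ratio to the control line of each probe of the other Notch pathway genes, by role, with 1 panel per variant line, filled points for values measured on both arrays, open triangles for bounds and dotted lines at 2-fold. Most points lie near 0 in each panel, and the probes past 2-fold are labelled with their gene: Mfng, Hes5 and Tle4 in the Fbxw11a line, and Numb and Dtx3l in the Fbxw11d line.

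The sequences before the transcription start are given for Notch3 and Notch4, the receptors whose probes were higher in all 3 variant lines. They are 250 bases each from RefSeq (GRCm38.p6), at chr17:32166891-32167140 on the minus strand for Notch3 and at chr17:34564045-34564294 on the plus strand for Notch4, written in the direction of the gene. Capitals mark the GC box GGGCGG on either strand.
Notch3: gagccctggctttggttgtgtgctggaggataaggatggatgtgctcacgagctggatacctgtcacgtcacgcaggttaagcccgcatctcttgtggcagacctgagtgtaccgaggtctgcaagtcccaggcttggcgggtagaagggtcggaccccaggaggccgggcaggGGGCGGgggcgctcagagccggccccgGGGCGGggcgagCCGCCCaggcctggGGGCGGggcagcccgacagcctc
Notch4: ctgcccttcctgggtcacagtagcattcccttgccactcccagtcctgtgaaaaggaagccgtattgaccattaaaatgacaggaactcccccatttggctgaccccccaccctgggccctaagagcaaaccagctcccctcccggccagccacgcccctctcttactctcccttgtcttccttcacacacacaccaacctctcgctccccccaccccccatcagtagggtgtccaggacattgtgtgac
The Notch3 window has 68.8% GC and the Notch4 window 58.4%. Windows were found for 9 of the 10 genes, all but Hes1, 10 windows in all, and 6 of them held the GC box, which 32.7% of 32851 windows of this length hold. The core TGGGAA bound by RBPJ (21.6% of all windows) and the core TCAAAG bound by TCF factors (13.8%), searched on both strands, were in none of the 10. No match says only that these letters are not in these windows.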

How the data were processed

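L1210 lines were grouped by their labels, with 1 array each. The authors deposited the scanner output of Agilent Feature Extraction (9.1 in the submitters' processing notes, 10.7.1.1 in the file headers), which holds a background-corrected signal intensity and its error per spot. They also deposited log2 values of the same signals, normalized between arrays by a method not given in the sources used here, with gene symbols and mm9 positions. The scanner signals were divided by the 75th percentile of the 59305 gene spots on their array and taken to log2. Outlier spots, 102 to 167 on an array, were dropped, and the mean of the remaining spots stood for a probe. A share of 0.5 of a probe's spots above background made the probe so, which held for 62.5% to 68.7% of probes. No gene spot was saturated. Bounds used the higher of the probe's own signal and the dimmest probe whose spots were all well above background. The number of arrays limits the precision.

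The genes described and the lists of pathway genes and markers were chosen with earlier results of these data known. All 13 Notch probes, pathway genes with a probe at 2-fold and the 3 probes most like the widest-ranging of the Notch probes measured in every line were to be named. Alternatives were normexp (limma 3.58.1, offset 50), quantile normalization, median centring, the authors' values, marked spots kept, other filters on dim probes, thresholds of 1.5 and 3, the brightest probe of a gene and, chosen after seeing the data, no scaling between arrays. Calling was tested on simulated data. The software was pandas 2.3.3, numpy 2.4.6, Python 3.11.15 and R 4.3.3.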

Additional observations from a re-analysis of the deposited data

Results flagged for a closer look

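The second Dll1 probe, A_55_P1986900, lay on opposite sides of the control line in different variant lines by more than the scanner error, with log2 ratios of -0.59 in the Fbxw11a line, 0.52 in the Fbxw11c line and -1.04 in the Fbxw11d line. Dtx3l A_55_P2174541 did so as well, with 0.30 in the Fbxw11c line and -1.07 in the Fbxw11d line. With 1 array per line these differences between lines were not tested. With normexp the Dll1 values were -0.19, 0.16 and -0.70 and the Dtx3l values 0.014 and -0.84, so that only the Fbxw11d line was beyond the scanner error for either probe. With no scaling between arrays the Fbxw11d line was at -0.42 and -0.45.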

How the results depend on the processing

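When the log2 ratios of Notch probes were recomputed under 6 other ways of processing, 153 values moved by no more than the scanner error of the ratio and 32 by more. In all, 14 values changed sign, all of ratios within their scanner error except that of Notch2 A_55_P1982793. The counts at 2-fold depended on the setting. With normexp no Notch probe and no other pathway probe was at 2-fold in the Fbxw11a line or the Fbxw11d line (0 for each), and no Notch probe was in the Fbxw11c line (0). Normexp also left fewer probes at 2-fold over the whole array. In the Fbxw11a line 260 were higher and 259 lower, against 1022 and 910. In the Fbxw11c line it was 114 and 331, against 627 and 1028, and in the Fbxw11d line 45 and 1055, against 385 and 2340. With no filter on dim probes the Notch counts were 2, 2 and 1 in the Fbxw11a line, the Fbxw11c line and the Fbxw11d line, and the pathway counts were 5 in the Fbxw11c line and 8 in the Fbxw11d line. At 1.5-fold the Notch counts were 4, 3 and 3, and the pathway counts were 3 in the Fbxw11c line and 9 in the Fbxw11d line. At 3-fold there were 0 in each. Counts over the whole array are not given for this filter and these thresholds, so the Notch counts there cannot be set beside the array. With median centring the Fbxw11d line had 2 Notch probes, both higher, and 0 pathway probes, and with quantile normalization or the authors' values it had 1 of each, the Notch probe then being the first Dll1 probe, higher. With no scaling between arrays, an alternative chosen after seeing the data, the Fbxw11d line had 3 Notch probes and 8 pathway probes, all higher. With the brightest probe of each gene the Fbxw11d line had 0 Notch probes and 1 pathway probe. No paired analysis was possible because each line had 1 array. The cause of these shifts was not tested. Signals near the detection limits of 10.4 to 18.1 give only bounds, which limits Notch1 A_55_P2047168, Dll4, Jag2 and Dtx1.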
